A study of Drosophila melanogaster with 6 samples.

Results

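The genes described here encode enzymes that take methyl groups off histones or act on methylated bases, and that need 2-oxoglutarate to do so: the histone demethylases Kdm2, Kdm3, Kdm4A, Kdm4B, lid and Utx, the dioxygenase Tet, and the related JmjC proteins NO66 and JMJD5. Members were taken as the probe sets whose only annotated gene is 1 of these 9, with the brightest probe set standing for a gene that has several. This gave 7 of the 9 genes and 10 probe sets, out of 11983 genes with a probe set of their own. The array annotation lists lid under its current symbol Kdm5. The 3 probe sets annotated to Kdm4B are all shared with CG17724, and 1 of them with seq as well, so no value is given for it. For Kdm2 the annotation used here listed no probe set.

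RNA came from circulating hemocytes, the blood cells of Drosophila melanogaster, taken at the wandering stage of the third larval instar. The Idh-R195H larvae (3 samples) carried hml-Gal4, UAS-2xEGFP and UAS-Idh-R195H, and the control larvae (3 samples) carried hml-Gal4 and UAS-2xEGFP without the mutant transgene. The hml-Gal4 driver acts in hemocytes, so the mutant enzyme is made in those cells on top of the larva's own Idh, and both groups carry the driver and the reporter. Each sample pooled the hemocytes of 400 larvae kept at 29 °C until day 7 and was hybridised to 1 array. The comparison asks which transcripts are higher or lower when hemocytes make Idh-R195H, the fly form of a mutant human enzyme found in cancer.

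Lysine demethylases with a JmjC domain, and Tet enzymes, use iron, oxygen and 2-oxoglutarate, and release succinate. Mutant isocitrate dehydrogenases of this kind turn 2-oxoglutarate into 2-hydroxyglutarate, which resembles it and can compete for the same enzymes. The arrays measured transcripts of these enzymes and say nothing of their activity or of the marks they remove.

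Idh, the gene the transgene encodes, had intensities of 11051, 9490.5 and 9359.7 on the Idh-R195H arrays, against 3805, 4006 and 4293 on the control arrays (log2 fold change 1.30 ± 0.19, SE; adjusted p = 0.0319 in limma), and the probe set cannot separate transgene from endogenous RNA. The hemocyte gene Hml was bright on every array, at 14685 to 17483 on Idh-R195H arrays and 12663 to 22128 on control arrays. Signal of markers of several cell types and tissues differed between the groups. The marker lists were chosen with earlier results of these data known. Of all probe sets, 43.1% were higher in Idh-R195H, and 3.11% passed at an adjusted p below 0.05 in limma. The summed intensity of 8 markers of lamellocytes, the flat hemocytes that wrap parasites, was 79498 to 89709 on Idh-R195H arrays and 6820 to 8659 on control arrays; all 8 were higher and 7 passed. That of 6 salivary gland markers was 991 to 4914 on Idh-R195H arrays and 23143 to 229873 on control arrays; all 6 were lower and 1 passed. That of 9 midgut markers was 403 to 1183 on Idh-R195H arrays and 1516 to 41246 on control arrays, with 7 of 9 lower and none passing. That of 3 fat body markers was 5534 to 50018 on Idh-R195H arrays and 39406 to 108887 on control arrays, with all 3 lower and none passing. Of 10 plasmatocyte markers 3 were higher and 7 lower, none passing, and of 5 crystal cell markers all 5 were lower and 1 passed. The ratio of 3' to 5' signal for Act5C, which rises as RNA is degraded, was 2.13 to 2.39 on Idh-R195H arrays and 3.72 to 6.17 on control arrays. The ratio for Gapdh was 2.04 to 2.40 on Idh-R195H arrays and 2.62 to 2.90 on control arrays. That for eIF-4a was 3.27 to 3.49 on Idh-R195H arrays and 5.73 to 6.48 on control arrays. Whether these differences bear on the demethylase values was not tested, and fewer cells of a type cannot be told apart from less RNA per cell.

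None of the 7 demethylase and related genes passed the test in either direction. Their log2 fold changes, Idh-R195H minus control on the log2(intensity + 1) scale, ran from -0.23 for JMJD5 to 0.51 for Kdm3. Their median was 0.23, and 4 of 7 were positive, against 43.1% of all probe sets. In limma, with p-values adjusted over all 18769 probe sets and a threshold of 0.05, 3.11% of all probe sets passed and 0 of 7 members did, the lowest adjusted p being 0.280 for NO66. At an unadjusted p below 0.05 the count was 0 of 7 members, against 20.2% of all probe sets. The arrays of the genotypes did not overlap for 2 of 7 members, Kdm3 and NO66, against 28.8% of all probe sets. The shares passing, below an unadjusted p of 0.05 and not overlapping lie at or below the background of the comparison. The median over all probe sets was -0.11, and over the 9383 with a mean intensity of at least 100 it was 0.00.

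The members' median varied with the array left out but stayed positive. It was 0.07 without control replicate 3, 0.40 without control replicate 1 and 0.38 without Idh-R195H replicate 2. Leaving out control replicate 2 gave 0.21, Idh-R195H replicate 1 0.18 and Idh-R195H replicate 3 0.17. None of these moved the median by more than the spread between replicates. Against control replicate 1 alone, a setting added after the data were seen, the median was -0.13, with 3 of 7 members positive. That array was the highest control array for 5 members, so a lower median follows from its choice. It also had the least salivary gland signal (23143, against 220111 and 229873 on the other control arrays). Whether that signal bears on the members was not tested.

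**Figure D1:**
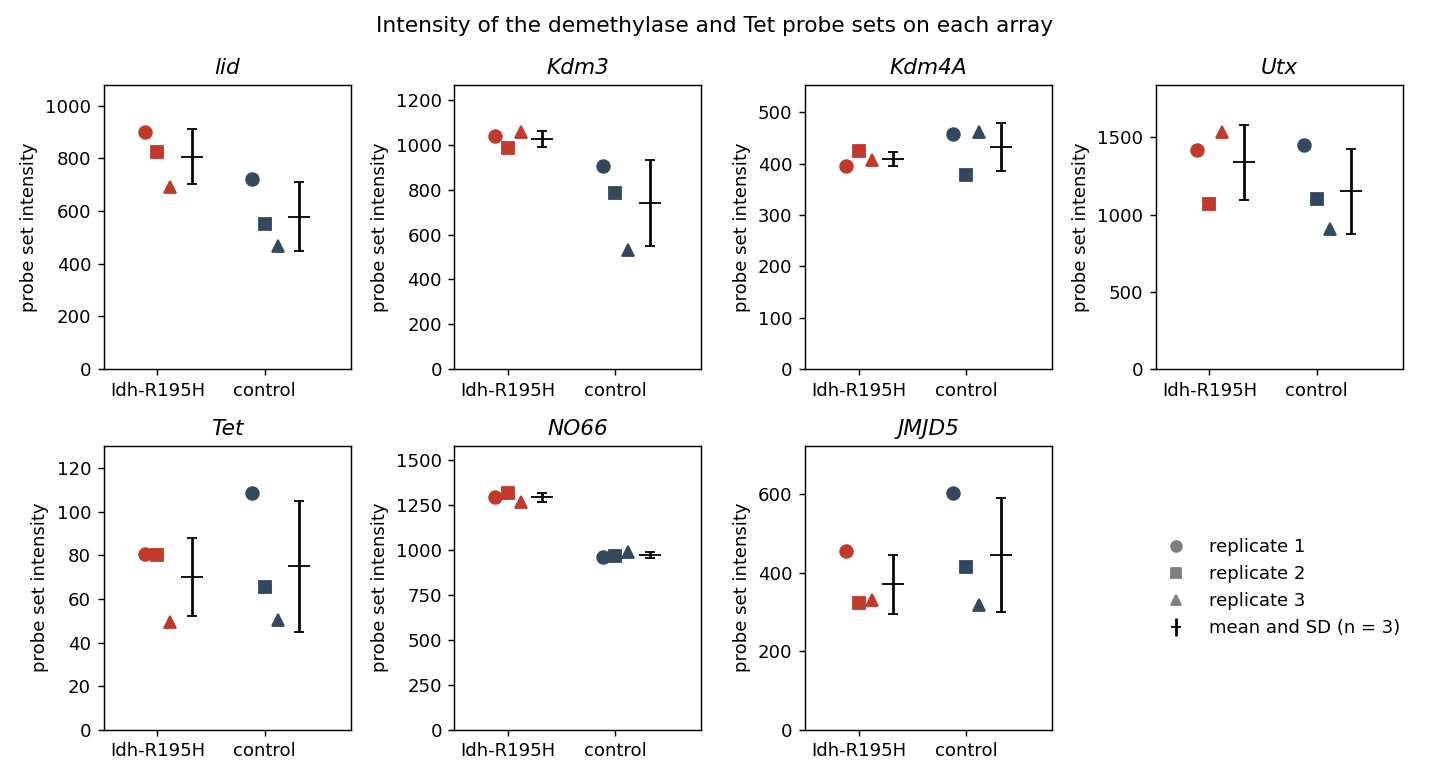
Probe set intensity (vertical axes, linear, from 0) of each of the 7 genes on the 3 Idh-R195H arrays (left in each panel) and the 3 control arrays (right); symbols mark the replicate number, and the bars give the mean and SD (n = 3). NO66 lies at 1270.2 to 1319 on Idh-R195H arrays and 963 to 992 on control arrays, and for the genes other than Kdm3 and NO66 the arrays of the genotypes overlap.

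The H3K4 demethylase lid (CG9088), the fly's KDM5 enzyme, which removes methyl groups from a mark of active promoters, had intensities of 899, 826 and 693 in Idh-R195H hemocytes, against 721, 549 and 467 in control hemocytes. In 8 of the 9 pairings of an Idh-R195H array with a control array the Idh-R195H array was higher, and the exception was Idh-R195H replicate 3 beside control replicate 1. The log2 fold change was 0.49 ± 0.25 (SE; 95% interval -0.13 to 1.11; adjusted p = 0.352 in limma). That interval allows anything from a small decrease, 0.915-fold, to a 2.16-fold increase. Against control replicate 1 alone the log2 fold change was 0.15.

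Kdm3 (CG8165), a demethylase of H3K9, the lysine methylated in silent chromatin, had intensities of 1041, 988 and 1057 in Idh-R195H hemocytes, against 905, 786 and 532 in control hemocytes. Every Idh-R195H array lay above every control array. The Idh-R195H mean of 1028 ± 35.7 (SD, n = 3) was 1.14 times control replicate 1, 1.31 times control replicate 2 and 1.93 times control replicate 3. The size of the difference therefore varied with the control array used, and the log2 fold change of 0.51 ± 0.26 (SE; 95% interval -0.14 to 1.15; adjusted p = 0.357 in limma) became 0.29 without control replicate 3 and 0.18 against control replicate 1 alone.

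Kdm4A (CG15835), which demethylates H3K36 and H3K9, was nearly level across the arrays. Its intensities were 396, 424 and 408 in Idh-R195H hemocytes, against 457, 378 and 461 in control hemocytes. The Idh-R195H arrays all fell within the range of the control arrays. The log2 fold change was -0.07 ± 0.20 (SE; adjusted p = 0.901 in limma), with a 95% interval of -0.56 to 0.41, or 0.680-fold to 1.33-fold. With the deposited scaling, larger changes in either direction lie outside that interval. Scaling on RNAs added to each sample, described below, gave 0.91, which also lies outside it.

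Utx (CG5640), the demethylase of H3K27, which opposes Polycomb silencing and works in the same complex as the methyltransferase trr, had intensities of 1416, 1065 and 1533 in Idh-R195H hemocytes, against 1448, 1098 and 906 in control hemocytes. The groups overlapped, with Idh-R195H higher in 6 of 9 pairings of arrays. The log2 fold change was 0.23 ± 0.28 (SE; 95% interval -0.45 to 0.91; adjusted p = 0.729 in limma), and its sign turned against control replicate 1 alone, where it was -0.13. It was 0.07 without control replicate 3, 0.41 without control replicate 1, 0.12 without Idh-R195H replicate 3 and 0.38 without Idh-R195H replicate 2.

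Tet (CG43444) is the single fly member of a family that oxidises methylated bases; in the fly, whose DNA holds little methylcytosine, it has been tied to N6-methyladenine in DNA and to hydroxymethylcytosine in RNA. Its brightest probe set was dim, with intensities of 80.5, 80.4 and 49.4 in Idh-R195H hemocytes, against 109, 65.7 and 50.5 in control hemocytes. Array medians were 76.6 to 83.7 for Idh-R195H and 80.5 to 107 for control, so Tet lay near the middle of all probe sets, and whether it was above background cannot be stated without detection calls. The log2 fold change was -0.06 ± 0.37 (SE; 95% interval -0.98 to 0.86; adjusted p = 0.964 in limma). It was 0.24 without control replicate 1, 0.17 without Idh-R195H replicate 3, -0.30 without control replicate 3 and -0.66 against control replicate 1 alone. The 3 other Tet probe sets were dimmer and disagreed in sign. Mean intensities were 39.3 ± 13.1 in Idh-R195H and 53.6 ± 15.7 in control hemocytes for the brightest of these 3, 12.4 ± 7.15 in Idh-R195H and 23.9 ± 12.8 in control hemocytes for the next, and 20.6 ± 20.4 in Idh-R195H and 12.3 ± 2.15 in control hemocytes for the dimmest (SD, n = 3 each). Their log2 fold changes were -0.45, -0.93 and 0.27, with adjusted p-values of 0.552, 0.494 and 0.893 in limma. These data leave a change of Tet in either direction possible, from 0.509-fold to 1.82-fold for the brightest probe set.

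NO66 (CG2982) is a JmjC protein whose human counterpart is a nucleolar oxygenase that hydroxylates a ribosomal protein. It had the tightest values of the 7 genes, with intensities of 1298, 1319 and 1270.2 in Idh-R195H hemocytes, against 963, 968 and 992 in control hemocytes. All 9 pairings had the Idh-R195H array higher, and the Idh-R195H mean was 1.34 times control replicate 1, 1.34 times control replicate 2 and 1.31 times control replicate 3. The SD of the log2 values within a group was 0.027 for Idh-R195H and 0.023 for control, below the SE of the moderated fit (0.18), which borrows the spread of all probe sets. The log2 fold change was 0.41 (95% interval -0.03 to 0.85; adjusted p = 0.280 in limma), a 1.33-fold difference. It stayed between 0.39 and 0.67 in the 14 settings that did not rescale on the added controls, where the lowest adjusted p was 0.0844, without dim probe sets. An exact permutation test on the 6 values of this gene alone, two-sided, cannot give a p below 0.1, whatever their spread.

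JMJD5 (CG13902), whose human counterpart is a hydroxylase of arginine, had intensities of 456, 324 and 331 in Idh-R195H hemocytes, against 603, 415 and 317 in control hemocytes. The groups overlapped, and control replicate 1 was the highest of the 6 arrays. The log2 fold change was -0.23 ± 0.31 (SE; 95% interval -1.01 to 0.54; adjusted p = 0.765 in limma). It was -0.72 against control replicate 1 alone and 0.012 without that array.

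**Figure D2:**
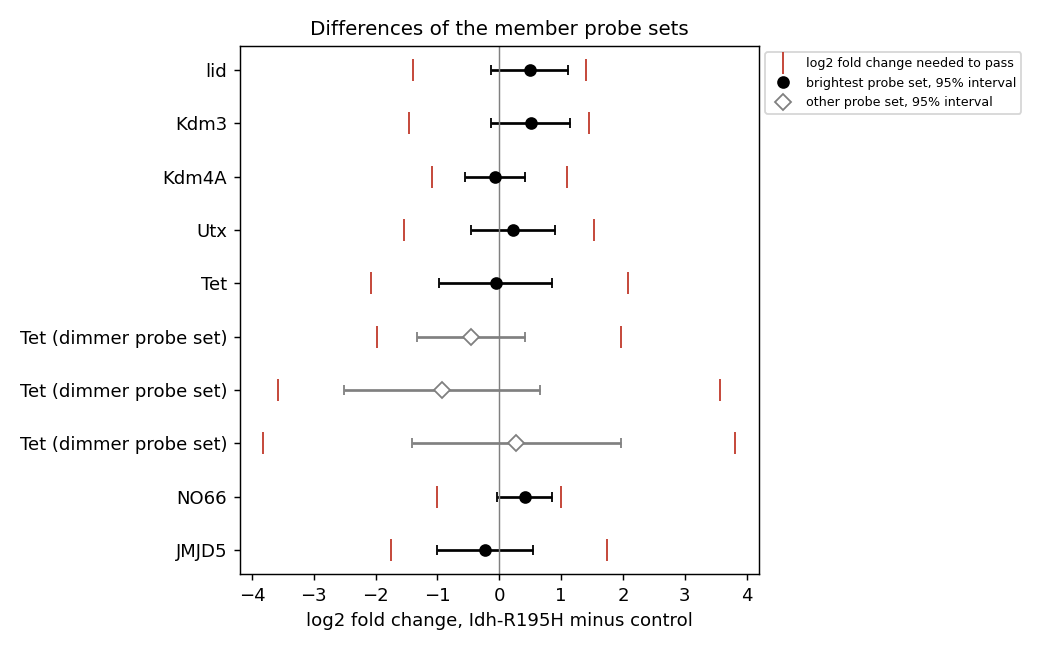
Log2 fold change, Idh-R195H minus control (horizontal axis), of the 10 probe sets of the 7 genes with 95% intervals from limma; filled points are the brightest probe set of a gene, open diamonds the dimmer Tet probe sets, and red ticks the log2 fold change at which each would have passed. Every interval includes 0 and every point lies inside its ticks, which run from 1.00 for NO66 to 3.82 for the dimmest Tet probe set.

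The size of change that the arrays could have called differed between the genes. Given each gene's SE, and the largest unadjusted p that passed (0.00155), a difference of 2.00-fold would have been needed for NO66, 2.14-fold for Kdm4A, 2.64-fold for lid, 2.75-fold for Kdm3 and 2.90-fold for Utx. For JMJD5 it was 3.37-fold and for Tet 4.21-fold. Smaller differences could not pass at these errors, and the missing calls do not show that the genes were unaltered.

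The sign of the smaller differences followed the scaling of the arrays. The deposited scaling sets all arrays to 1 trimmed mean. Hybridisation controls are bacterial and phage RNAs added to each sample; the median of their 16 probe sets was 1.95-fold higher in control. Scaling on them moved the median log2 fold change of all probe sets to 0.87 and that of the members to 1.21. All 7 members were then higher, and lid (adjusted p = 0.00899), Kdm3 (0.00898), Kdm4A (0.0203), Utx (0.0136) and NO66 (0.00724) passed in limma, as did 34.5% of all probe sets in that direction. This scaling, like centring on the array median, shifts all values of an array by the same amount. A gene's position relative to the median of all probe sets is therefore fixed at that of the deposited scaling. Only quantile normalization could alter it. Relative to that median, Kdm3, lid, NO66 and Utx were higher with the deposited scaling and after quantile normalization, and JMJD5 was lower. Tet, itself dim, lay slightly above the median in both. Kdm4A lay slightly above it with the deposited scaling and below it after quantile normalization. Among probe sets with a mean intensity of at least 100, Kdm4A lay below the median in both. It was at -0.07 beside 0.00 with the deposited scaling and -0.01 beside 0.04 after quantile normalization.

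**Figure D3:**
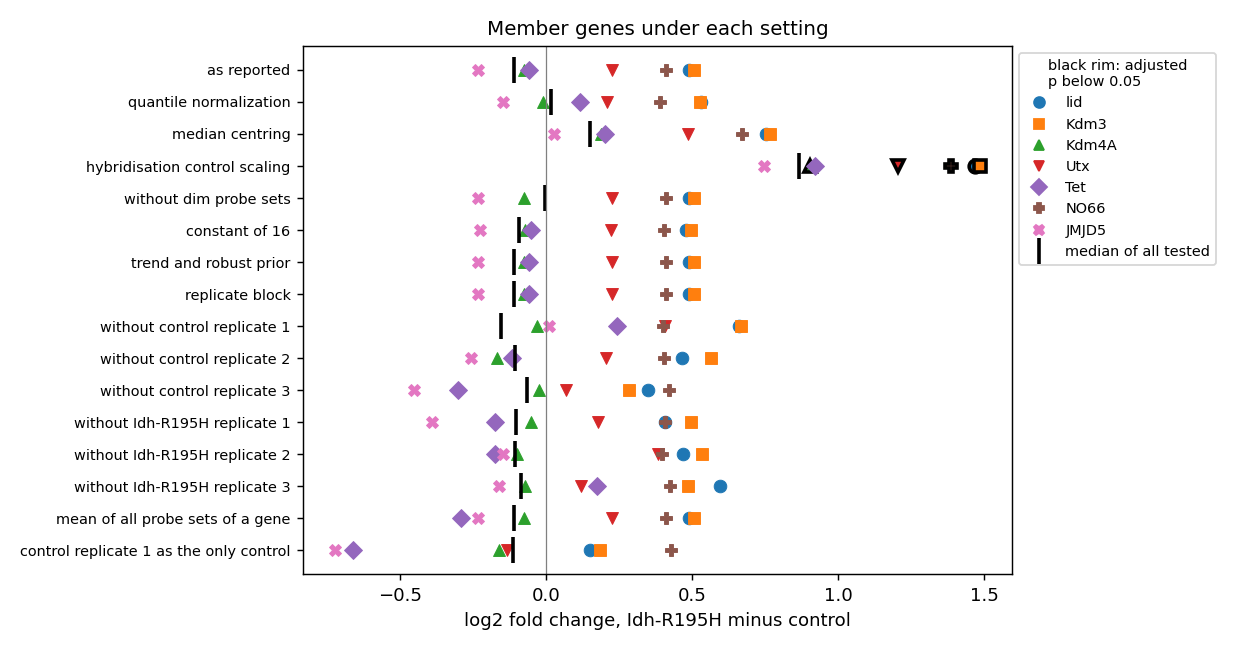
Log2 fold change of each of the 7 genes (coloured symbols, horizontal axis) as reported and under 15 other settings (rows); vertical ticks give the median of all probe sets tested in that setting, and a black rim marks an adjusted p below 0.05. Black rims occur only under scaling on the hybridisation controls, where the median of all probe sets is itself 0.87; against control replicate 1 alone the members spread from -0.72 for JMJD5 to 0.43 for NO66.

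Control arrays varied more than Idh-R195H arrays for most of these genes. The highest Idh-R195H array was 1.07 times the lowest for Kdm3, 1.30 for lid, 1.44 for Utx, 1.63 for Tet and 1.41 for JMJD5. Among control arrays the same ratio was 1.70 for Kdm3, 1.55 for lid, 1.60 for Utx, 2.15 for Tet and 1.90 for JMJD5. The control range was the wider of the pair for 6 of 7 members, NO66 being the exception, and for 85.9% of the 7951 genes with a mean intensity of at least 100. Control replicate 1 was the highest control array for 5 members, and control replicate 3 the lowest for the same 5, namely Kdm3, lid, Utx, Tet and JMJD5. Control replicate 3 was the lowest of all 6 arrays for 4 members, Kdm3, lid, Utx and JMJD5, as it was for 30.4% of those 7951 genes. That array had the highest Act5C ratio (6.17), eIF-4a ratio (6.48) and salivary gland sum (229873). The Gapdh ratio was highest on control replicate 2 (2.90, against 2.81 on control replicate 3). The part of these in the low demethylase values of control replicate 3 was not tested.

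**Figure D4:**
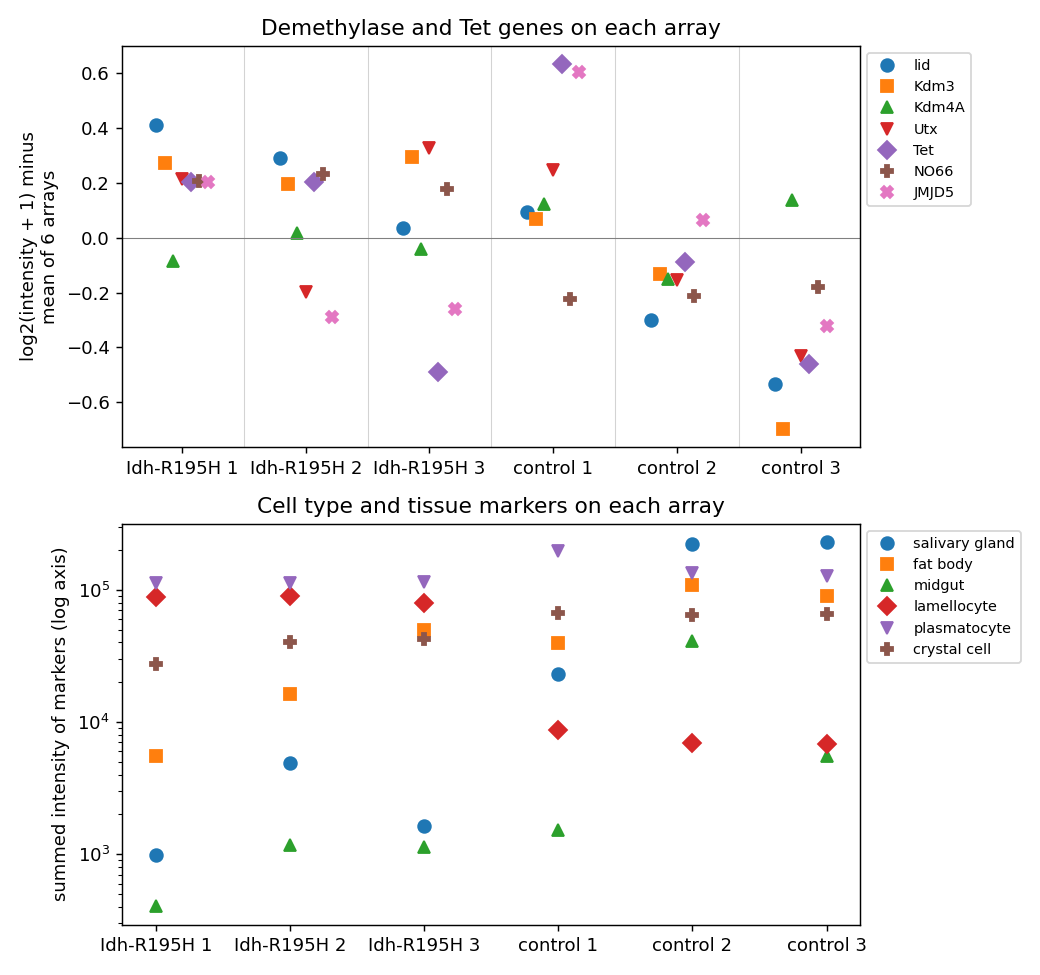
Upper panel, log2(intensity + 1) of each of the 7 genes on each array, minus the gene's mean over the 6 arrays; lower panel, summed intensity of 6 marker lists on the same arrays (log axis). Kdm3, lid, Utx, Tet and JMJD5 are highest on control replicate 1 and lowest on control replicate 3 among the control arrays, while NO66 separates the groups and Kdm4A stays near 0; salivary gland signal is at 23143 on control replicate 1 and at 220111 and 229873 on the other control arrays.

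Across the 6 arrays the members did not follow a common course. Kdm3 and lid were the most alike (Pearson r = 0.890 on the log2 scale), followed by Tet and JMJD5 (0.802) and by Kdm3 and Utx (0.793), while Kdm4A correlated at -0.458 with Kdm3. These are descriptions over 6 arrays that share a scaling and fall into 2 groups. Among 11976 other genes, the pattern of Kdm3 was most like those of Nup153, a nuclear pore gene (r = 0.999), and CG4849 (0.997), and that of lid most like those of CG9330 (0.997) and CG5112 (0.996). The genes most like NO66 were CG7497 (0.9997) and CG1648 (0.998), which differed far more between the groups, with log2 fold changes of 4.86 and 3.15 (adjusted p = 0.00280 and 0.00460 in limma). For Kdm4A they were HLH3B (0.991) and CG15653 (0.975), for Utx CG17078 (0.992) and CG7706 (0.987), for Tet omd (0.992) and Dolk (0.982), and for JMJD5 CG6843 (0.989) and CG7049 (0.985). Each pair was picked as the highest 2 of 11976 correlations over 6 arrays. Values near 1 can arise from that selection alone, so they do not show shared regulation.

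Enzymes that set the marks these demethylases remove were measured on the same arrays. Of 16 histone methyltransferases and PRC2 partners listed, 11 had a probe set of their own. Of these, 9 were positive, against 43.1% of all probe sets and 49.9% of those with a mean intensity of at least 100. None passed, against 3.11% of all probe sets. Their median was 0.42, and 4 of 11 were at an unadjusted p below 0.05 in limma, against 20.2% of all probe sets. For H3K4, the methyltransferases trr and trx had log2 fold changes of 0.81 ± 0.37 and 0.42 ± 0.32, beside 0.49 for lid. For H3K27, E(z), the catalytic subunit of PRC2, was at 0.20 ± 0.25, beside 0.23 for Utx, and its partners Su(z)12, Caf1-55 and escl were at 0.67 ± 0.25, 0.52 ± 0.21 and 1.08 ± 0.39. The partner Pcl was at 0.16 ± 0.32, and esc and jing were on the other side of 0, at -0.09 ± 0.30 and -0.13 ± 0.21. For H3K36, NSD was at 0.64 ± 0.20 and Set2 at 0.23 ± 0.24 (all SE), beside -0.07 for Kdm4A. NSD had intensities of 524, 578 and 519.6 in Idh-R195H hemocytes, against 317, 396 and 333 in control hemocytes, and an adjusted p of 0.161 in limma. The 3 H3K9 methyltransferases listed had no probe set of their own under those names. The median of the PRC2 list, 0.20 over all arrays, was -0.01 against control replicate 1 alone, beside -0.13 for Utx. Without that array it was 0.36, beside 0.41 for Utx. The median of trr and trx, 0.62 over all arrays, was 0.03 against control replicate 1 alone, beside 0.15 for lid. Without that array it was 0.91, beside 0.66 for lid. Control replicate 1 was the highest control array for trr and trx, so their lower median follows from its choice. The median of NSD and Set2, 0.43 over all arrays, was 0.34 against control replicate 1 alone, beside -0.16 for Kdm4A. Without that array it was 0.48, beside -0.03 for Kdm4A.

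The flavin-dependent demethylase Su(var)3-3, the fly LSD1, does not use 2-oxoglutarate. It had a log2 fold change of 0.37 ± 0.29, and its partner CoRest one of 0.62 ± 0.27 (SE), neither passing (adjusted p = 0.546 and 0.285 in limma). Their median of 0.49 was 0.73 without control replicate 1 and 0.02 against that array alone. Control replicate 1 was the highest control array for both genes, so the lower median follows from its choice. Of 5 other JmjC proteins, 4 were positive, against 43.1% of all probe sets, and none passed, against 3.11%. Their median of 0.25 was 0.26 without control replicate 1 and 0.01 against that array alone. The largest difference was that of JMJD7, at 288, 272 and 302 in Idh-R195H hemocytes and 478, 358 and 484 in control hemocytes (-0.60 ± 0.22, SE; adjusted p = 0.206). Jarid2, a PRC2 cofactor, was at 0.32 and PSR (JMJD6) at 0.25. HSPBAP1 had intensities of 209.8, 221 and 210.2 in Idh-R195H hemocytes, against 164, 171 and 184 in control hemocytes, with no overlap (0.30 ± 0.18, SE; adjusted p = 0.436). All 4 other 2-oxoglutarate dioxygenases measured were positive, against 43.1% of all probe sets, and none passed, against 3.11%. Hph, the prolyl hydroxylase that marks the hypoxia factor for destruction, was at 0.65 ± 0.20 (SE, adjusted p = 0.162 in limma). The collagen-modifying enzymes PH4alphaEFB and Plod were at 0.60 and 0.51, and AlkB at 0.10. The median of these 4 enzymes, 0.56, was 0.75 without control replicate 1 and 0.04 against that array alone. Control replicate 1 was the highest control array for all 4, so the lower median follows from its choice.

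**Figure D5:**
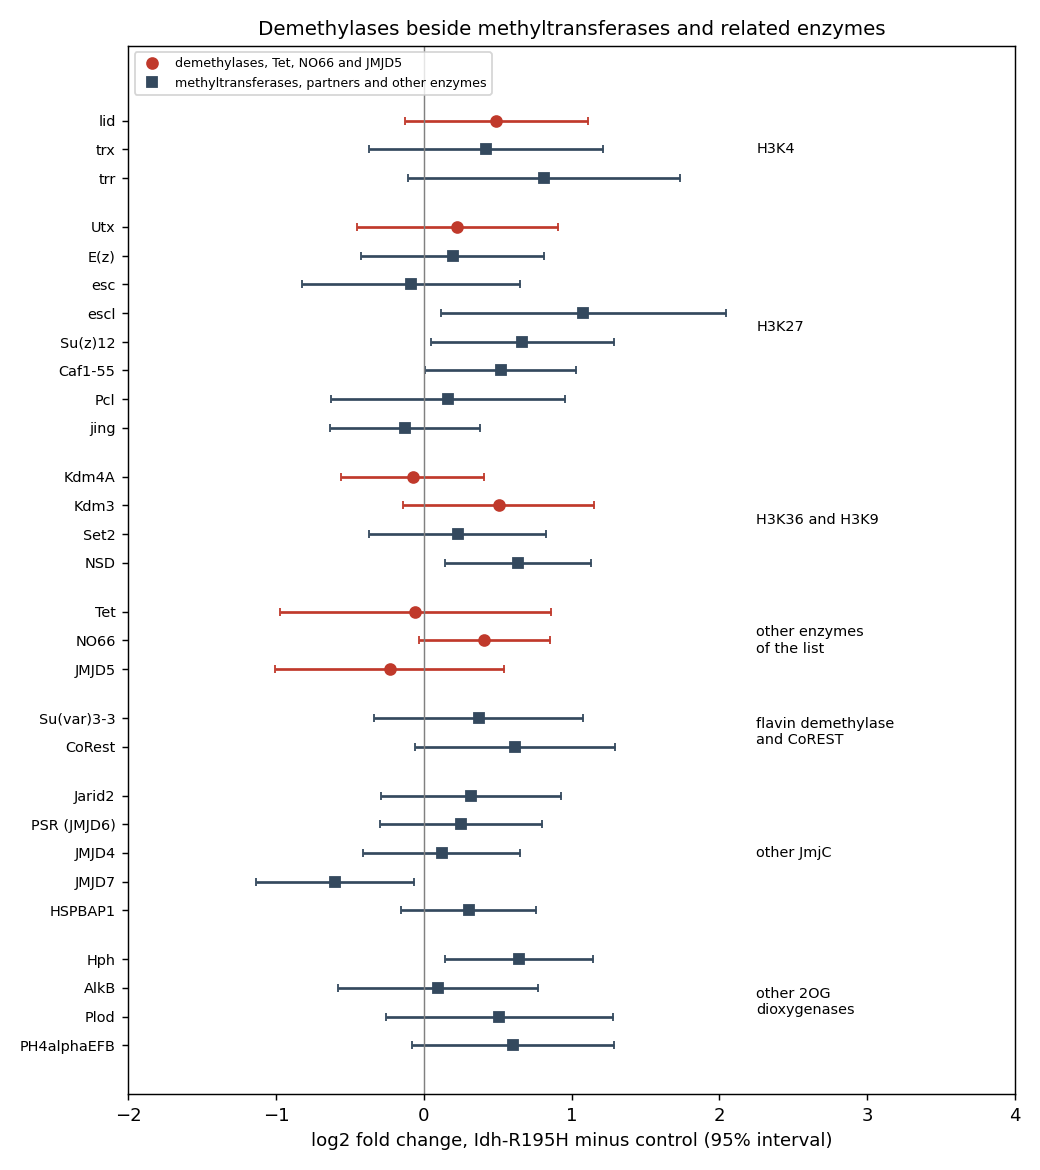
Log2 fold change, Idh-R195H minus control, with 95% intervals from limma, for the 7 genes (red circles) beside methyltransferases and their partners, other JmjC proteins, other 2-oxoglutarate dioxygenases and the flavin-dependent demethylase (blue squares), grouped by the mark or family. None of these genes passed after adjustment. While lid and trx, and Utx and E(z), sit at similar values, others in the same groups do not. The methyltransferase trr (0.81) lies above lid (0.49), escl (1.08) above Utx (0.23), and NSD (0.64) above Kdm4A (-0.07).

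Partners of the demethylases also gave no call, where 3.11% of all probe sets passed. In the COMPASS core and the complex that holds Utx, 8 members were measured and 5 were positive, against 43.1% of all probe sets. The median was 0.09. In this list wds was at 0.59 ± 0.31 and Lpt at -0.31 ± 0.31 (SE), while Hcf was dim, with means of 29.2 in Idh-R195H and 69.2 in control hemocytes. Of 4 measured partners of lid, HDAC1, a histone deacetylase, was at 0.63 ± 0.24 (SE; adjusted p = 0.224 in limma), Pf1 at -0.28, foxo at -0.25 and Mrg15 at 0.19, and the list's median was -0.03. Of 3 measured PRC1 genes, Psc was at 0.81 ± 0.30 (SE; adjusted p = 0.212), Pc at 0.33 ± 0.39 and Sce at -0.20 ± 0.22 (SE). Their median of 0.33 was 0.72 without control replicate 1, 0.07 without control replicate 3 and -0.39 against control replicate 1 alone. The Hox genes with a probe set of their own, classic targets of Utx and Polycomb, were dim in both groups: the means of Scr, Antp, Dfd and pb were 48.8, 40.9, 18.8 and 14.3 in Idh-R195H hemocytes and 52.0, 71.3, 27.3 and 25.4 in control hemocytes, and none of the 4 passed.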

How the data were processed

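Per the labels' protocols, biotin-labelled cRNA from 6 ug of total RNA was hybridised to 1-colour Affymetrix arrays. The deposited intensities are on a linear scale, with 1 value per probe set; all 6 arrays share a trimmed mean of 500.0 (trimmed by 2% per tail), which shows a common scaling before deposit. Partek 6.0 is named per the submitters' processing notes. How probes were summarised, and the genome build, is not given in the sources used here. Of 18952 probe sets, 183 control probe sets were left out. Gene names came from the platform annotation, matched by gene identifier to RefSeq names (13647 tested probe sets had 1 gene, 402 several, 4720 none).

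Groups came from the titles. Values were transformed as log2(intensity + 1), and limma 3.58.1 in R 4.3.3 tested Idh-R195H minus control, two-sided, with Benjamini-Hochberg adjustment over 18769 probe sets and no filter on dim ones. The steps were tested on simulated data. The labels call the samples biological replicates; their number limits precision. Named were all members, the 4 largest differences of each other list of enzymes, partners or targets (marker lists, which the rule also covered, are given as sums and counts), and the 2 genes most correlated with each member. Members and lists were chosen with earlier results of these data known. Alternatives were 3 other scalings, a dim filter, another constant, another prior, a replicate block, all probe sets of a gene, leaving out arrays and, added after seeing the data, control replicate 1 as the only control. Sequences and coordinates were not analysed here.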

Additional observations from a re-analysis of the deposited data

How the results depend on the processing

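The number of probe sets called, 584 (356 higher, 228 lower), was 493 after quantile normalization, 429 (318 higher, 111 lower) after median centring, 6652 (6476 higher, 176 lower) with hybridisation control scaling, 1297 without dim probe sets, 888 with a constant of 16, 1253 with a trend and robust prior, 346 with control replicate 1 as the only control, and between 11 and 870 without single arrays (leaving out control replicate 1 gave 870, control replicate 2 155 and control replicate 3 300; leaving out Idh-R195H replicate 1 gave 86, replicate 2 gave 11 and replicate 3 gave 68). The number of members called was 0 in 14 of 15 alternatives and 5 with hybridisation control scaling. The members' median of 0.23 was 0.49 with median centring, 1.21 with hybridisation control scaling, -0.13 with control replicate 1 as the only control, and between 0.07 and 0.40 without single arrays. A replicate block gave 0 called probe sets and 0 called members, and the members' median was 0.23. Same-numbered arrays did not deviate together over all probe sets (correlations of 0.03, 0.02 and -0.07). With 3 arrays per group, these correlations cannot tell whether same-numbered arrays were processed together.

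The sign turned for Kdm4A with median centring (0.19) and hybridisation control scaling (0.91). It turned for JMJD5 with those scalings (0.029 and 0.75) and without control replicate 1 (0.012; -0.45 to 0.012 without single arrays). It turned for Tet after quantile normalization (0.12), median centring (0.20), hybridisation control scaling (0.92), without control replicate 1 (0.24) and without Idh-R195H replicate 3 (0.17; -0.30 to 0.24 without single arrays), and for Utx with control replicate 1 as the only control (-0.13). The turns with median centring and hybridisation control scaling follow from a shift shared by all probe sets. The median of all probe sets went from -0.11 to 0.15 with median centring and to 0.87 with hybridisation control scaling. Apart from these turns and the changes that follow from fewer arrays or fewer probe sets tested, the cause was not tested. The signs of Kdm3, lid and NO66 held in all 15 alternatives, but most of these could not have turned them. The dim filter, the other prior, the replicate block and the mean of probe sets left these log2 fold changes as they were. Median centring and hybridisation control scaling raised every log2 fold change by the same amount. The arrays of the genotypes did not overlap for Kdm3 and NO66, so leaving out arrays could not turn their signs. Of 237 medians of other lists, 44 moved by more than the spread between replicates. With 1 control array, that array is assumed to vary as the Idh-R195H arrays do. Brightness limits Tet most: its 4 probe sets had mean intensities of 16.5 to 72.5.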

Other observations

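Enzymes that make or use 2-oxoglutarate, and subunits of succinate dehydrogenase, which does neither, were measured on the same arrays. The list of tricarboxylic acid cycle and related enzymes had 8 measured members. Of these, 7 were positive, against 43.1% of all probe sets, and only Idh passed, against 3.11%. Idh is the gene the transgene encodes, so its sign and its call follow from the design. The list's median of 0.45 was 0.57 without control replicate 1 and 0.26 against that array alone. Ogdh (listed as Nc73EF), a subunit of the enzyme that consumes 2-oxoglutarate, had intensities of 2602, 2802 and 2795 in Idh-R195H hemocytes, against 1293, 961 and 599.8 in control hemocytes, with no overlap (log2 fold change 1.59 ± 0.32, SE; adjusted p = 0.0657 in limma). SdhB, a subunit of succinate dehydrogenase, which removes the succinate that demethylases release, was at 1434, 1552 and 1459 in Idh-R195H hemocytes and 898, 799 and 767 in control hemocytes (0.85 ± 0.19, SE; adjusted p = 0.0833). Idh3b, a subunit of the mitochondrial NAD-dependent isocitrate dehydrogenase, had the only negative log2 fold change of the list, with means of 1044 ± 14.6 in Idh-R195H and 1382 ± 24.2 in control hemocytes (SD, n = 3 each; adjusted p = 0.285), while Idh3g was at 0.58 ± 0.22 (SE).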
